A study of Homo sapiens with 6 samples.

Results

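The let-7 5p miRNAs other than let-7e-5p were followed in small RNA libraries of A549 cells, a human lung adenocarcinoma line. The members were taken by name from both deposited count tables and all 8 were present, of 2588 mature miRNAs listed: hsa-miR-98-5p and hsa-let-7a-5p, hsa-let-7b-5p, hsa-let-7c-5p, hsa-let-7d-5p, hsa-let-7f-5p, hsa-let-7g-5p and hsa-let-7i-5p (the species prefix is dropped from here on). The cells carried a doxycycline-inducible knockdown of METTL1, the methyltransferase that places N7-methylguanosine (m7G) in tRNA, and were taken on day 5 of doxycycline at 200 ng/ml. Per the study's methods, the line was made by lentiviral delivery of a short hairpin RNA. There were 2 groups of 3 libraries, one of total RNA and one of RNA immunoprecipitated with an anti-m7G antibody after heat denaturation (m7G-RIP). Both groups carry the knockdown, and neither METTL1-proficient cells nor IgG precipitates were analysed here. Each comparison is therefore of recovery in m7G-RIP over total RNA and not of the effect of METTL1. Any difference between the groups in library preparation or sequencing cannot be told apart from recovery by the antibody. The culture text attached to the m7G-RIP samples describes Caco-2 medium, while their titles and cell line labels name A549.

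let-7 miRNAs are made from hairpin transcripts that DROSHA and then DICER1 cut, and the 5p strand is the guide that Argonaute proteins retain. Guides find target mRNAs mainly through the seed, the bases near the 5′ end, so that miRNAs with a common seed share most targets, among them HMGA2 and RAS genes. The family is best known for holding back proliferation and migration in lung cancer cells. m7G-RIP was applied by the study to ask which miRNAs carry this modification, and let-7e-5p, the family member studied there in most detail, was kept here as the reference within the family.

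The mature sequences are shown because the members differ from each other by few bases, which bears on how reads are assigned. They are set beside the recovery values further below. They are RefSeq sequences (GRCh38.p14), written 5′ to 3′, with the seed (bases 2 to 8) in capitals.
let-7a-5p: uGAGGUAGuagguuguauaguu
let-7b-5p: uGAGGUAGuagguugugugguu
let-7c-5p: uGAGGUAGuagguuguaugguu
let-7d-5p: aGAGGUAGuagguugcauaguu
let-7e-5p: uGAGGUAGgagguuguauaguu
let-7f-5p: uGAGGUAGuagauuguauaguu
let-7g-5p: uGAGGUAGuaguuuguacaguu
let-7i-5p: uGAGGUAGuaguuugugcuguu
miR-98-5p: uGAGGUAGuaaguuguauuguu

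All 9 are 22 bases long and share 1 seed, GAGGUAG, so they form a single seed group. Counting positions from 1 at the 5′ end and taking let-7a-5p as the reference, let-7c-5p differs only by A19G, let-7f-5p only by G12A and let-7e-5p only by U9G. let-7b-5p differs by A17G and A19G, let-7d-5p by U1A and U16C, and let-7g-5p by G12U and U18C. miR-98-5p differs by G11A and A19U, and let-7i-5p, the most distant from let-7a-5p, by G12U, A17G, U18C and A19U. Among the 28 pairs of members, 3 pairs differ at 1 base (let-7a-5p with let-7c-5p, let-7a-5p with let-7f-5p, and let-7b-5p with let-7c-5p) and the most distant pair, let-7d-5p with let-7i-5p, at 6 bases. How many reads of one member were counted under a near-identical one was not tested.

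The members come from 11 hairpin genes. let-7a-5p has 3 (MIRLET7A1, MIRLET7A2 and MIRLET7A3) and let-7f-5p has 2 (MIRLET7F1 and MIRLET7F2), and reads of their mature strands cannot be told apart by gene. The other members have 1 hairpin gene each. MIRLET7A1, MIRLET7F1 and MIRLET7D lie together on chromosome 9, at chr9:94175957-94176036, chr9:94176347-94176433 and chr9:94178834-94178920 on the plus strand, in exonic sequence of the lncRNA MIRLET7A1HG. MIRLET7A3 (chr22:46112749-46112822) and MIRLET7B (chr22:46113686-46113768) lie in exonic sequence of MIRLET7BHG. MIRLET7F2 (chrX:53557192-53557274) and MIR98 (chrX:53556223-53556341) share an intron-borne cluster of HUWE1 on the minus strand. MIRLET7A2 (chr11:122146522-122146593) lies in an intron of MIR100HG, MIRLET7C (chr21:16539828-16539911) in exonic sequence of MIR99AHG, MIRLET7G (chr3:52268278-52268361) in an intron of WDR82 and MIRLET7I (chr12:62603686-62603769) in an intron of MIRLET7IHG, where it also overlaps exons of 2 other lncRNAs. Coordinates are GRCh38 and were identical in RefSeq and GENCODE release 44.

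Total RNA libraries held from 9155690 to 10753443 counts and m7G-RIP libraries from 2649238 to 3106556. The lowest count of any member in any library was 723, so depth did not limit the family, and the widest 95% exact binomial (Clopper-Pearson) interval of a member's share of the let-7 5p counts was ± 0.115 percentage points, counting error only. Levels here are CPM, counts scaled to a common library size. Of 18 miRNAs that mark particular tissues, 6 were at 0 in every library: miR-122-5p (liver), miR-144-3p (erythroid), miR-142-3p, miR-142-5p and miR-223-3p (leukocytes) and miR-145-5p (smooth muscle and fibroblasts). miR-143-3p, of the same smooth muscle and fibroblast type, was present in every library and reached 36.9 CPM in m7G-RIP replicate 2, against 3.93 to 9.34 CPM in the others. miR-9-5p (neurons) was at 409 to 502 CPM in total RNA and 120 to 150 CPM in m7G-RIP, and miR-126-3p (endothelium) at 355 to 374 and 273 to 350 CPM. miR-124-3p, also of neurons, was at 1.97 CPM in total RNA replicate 3, 0.644 in m7G-RIP replicate 3 and 0 elsewhere. The erythroid miR-451a was at 1.81 CPM in m7G-RIP replicate 2 and 0 elsewhere. Of the epithelial miRNAs, miR-200c-3p was at 65.7 to 76.9 CPM in total RNA and 91.7 to 131 in m7G-RIP. The other, miR-141-3p, did not exceed 0.558 CPM. The muscle miRNA miR-1-3p stood at 94.1 CPM in m7G-RIP replicate 2, against 24.9 and 0.644 CPM in replicates 1 and 3 of that group, and miR-133a-3p, also of muscle, at 41.3 CPM in replicate 2 and at 0 in the other m7G-RIP libraries. miR-192-5p, an intestinal and renal epithelial miRNA, was at 17545 to 17704 CPM in total RNA and 3445 to 3582 CPM in m7G-RIP. The others of this type were far lower. miR-194-5p was at 350 to 455 CPM in total RNA and 79.6 to 143 in m7G-RIP, and miR-215-5p at 40.9 to 44.5 and 5.79 to 7.08 CPM. None of these lists marks A549 cells in particular, and the part of other cells in the values below was not tested.

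The family took a larger part of the m7G-RIP libraries than of total RNA, a difference that was smaller once miR-21-5p was left out of the totals. The 8 members together held 10.5%, 10.2% and 12.1% of all counts in total RNA replicates 1, 2 and 3, and 23.7%, 23.4% and 23.0% in m7G-RIP. The means were 10.9% ± 1.07 and 23.4% ± 0.343 (SD, n = 3), a difference of 12.4 percentage points, and the groups did not overlap. With let-7e-5p added, the shares were 11.3% ± 1.12 and 26.2% ± 0.211 (SD, n = 3). miR-21-5p, an abundant miRNA of cancer cells, held 47.4% ± 2.48 of all counts in total RNA and 4.92% ± 0.0875 in m7G-RIP (SD, n = 3). With miR-21-5p left out of the totals, a choice made after seeing the data, the 8 members held 20.4%, 19.9% and 21.9% in total RNA and 24.9%, 24.6% and 24.2% in m7G-RIP, a difference of 3.84 points, still without overlap. These shares are relative to the other miRNAs of each library, and the amount of RNA recovered by the antibody was not known.

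Members were then compared between the groups with edgeR's quasi-likelihood test over 620 miRNAs, on levels scaled by TMM (a scaling that sets the bulk of miRNAs to no change). Of the 8 members, 6 were enriched in m7G-RIP at an adjusted p under 0.05 and 0 were depleted (edgeR; 0 members had a negative ratio at an unadjusted p under 0.05, and DESeq2 and limma-voom also depleted 0). Among all miRNAs tested 23.5% were enriched and 29.2% depleted. The median log2 ratio of m7G-RIP over total RNA was 0.50 for the members and -0.07 for all miRNAs tested. With library size alone, all 8 members and 34.8% of all miRNAs tested were enriched and these medians were 1.05 and 0.48, so the members kept their place above the bulk while every ratio moved up with it. For 6 members the lowest m7G-RIP library exceeded the highest total RNA library, as for 29.5% of all tested miRNAs, and for 1 member the order was the reverse, as for 36.5%. The enriched count depended on which libraries entered: it was 3 without m7G-RIP replicate 1, 2 or 3, and 5 without total RNA replicate 1 or 2. When these fits tested the same 620 miRNAs, a choice made after seeing the data, it was 6, 6 and 5 without m7G-RIP replicates 1, 2 and 3, and 3 without total RNA replicate 1 or 2.

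**Figure D1:**
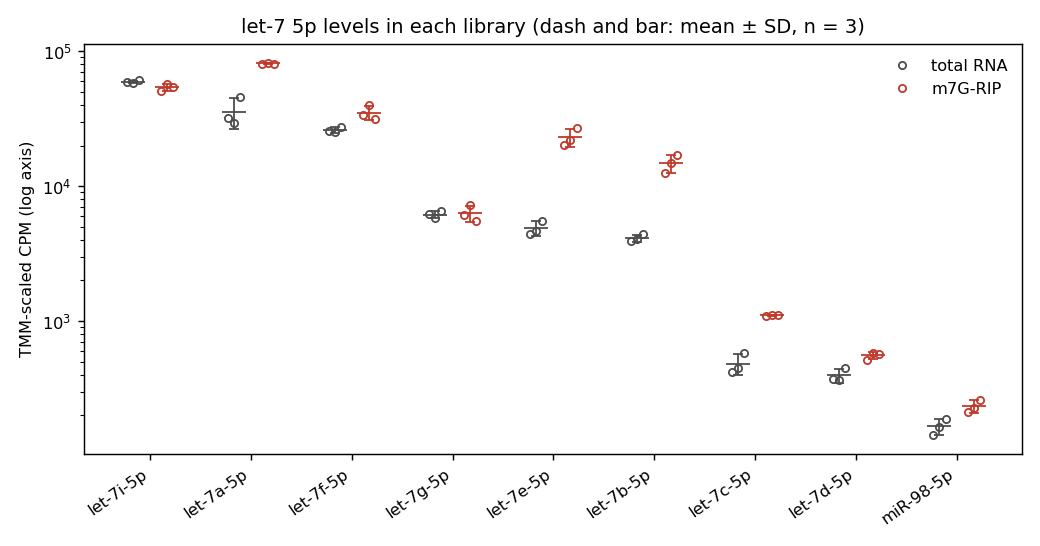
TMM-scaled CPM on a log axis for the 8 members and let-7e-5p in each of the 3 total RNA and 3 m7G-RIP libraries (circles), with mean ± SD. let-7b-5p shows the widest separation among the members, let-7a-5p overtakes let-7i-5p in m7G-RIP, and let-7g-5p overlaps between the groups, while the position of let-7g-5p and let-7i-5p relative to no change turns with the scaling.

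The members with the highest recovery were let-7b-5p, let-7c-5p and let-7a-5p, each at least doubled on the TMM scale. let-7b-5p, encoded beside MIRLET7A3, stood at 3924, 4053 and 4403 TMM-scaled CPM in total RNA and at 12428, 14738 and 16980 in m7G-RIP. The m7G-RIP values were all higher and far apart from those of total RNA, and the log2 ratio was 1.83 (SE 0.13, edgeR adjusted p 3.81e-06). This was the highest ratio among the 8 members, and 84.7% of the tested miRNAs had a lower one.

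let-7a-5p, the only member with 3 hairpin genes, stood at 31740, 29237 and 45982 TMM-scaled CPM in total RNA. Replicate 3 was higher than the other two of that group. In m7G-RIP it stood at 80634, 82259 and 80765, with little spread, so the groups were clear of each other, and the log2 ratio was 1.19 (SE 0.16, edgeR adjusted p 0.000266). It was the most abundant member after immunoprecipitation and ranked 3 among all miRNAs there, against 5 in total RNA.

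let-7c-5p, which differs by 1 base from both let-7a-5p and let-7b-5p, stood at 418, 449 and 581 TMM-scaled CPM in total RNA and at 1094, 1113 and 1102 in m7G-RIP. Its log2 ratio, also 1.19 (SE 0.14, edgeR adjusted p 0.000113), was nearly that of let-7a-5p. Total RNA replicate 3 was the highest of its group for let-7c-5p as it was for let-7a-5p. The count of let-7c-5p was 1.32%, 1.54% and 1.26% of that of let-7a-5p in total RNA and 1.36%, 1.35% and 1.36% in m7G-RIP. This ratio therefore barely varied among the m7G-RIP libraries, and its range there lay inside that of total RNA. Whether reads of let-7a-5p contributed to the let-7c-5p count was not tested.

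miR-98-5p, let-7f-5p and let-7d-5p formed a middle group with enrichment under 2-fold. let-7d-5p, the third miRNA of the chromosome 9 cluster, stood at 372, 366 and 450 TMM-scaled CPM in total RNA and at 519, 582 and 569 in m7G-RIP, with 0.49 as log2 ratio (SE 0.13) and an edgeR adjusted p of 0.0126. let-7f-5p, from the chromosome 9 and X clusters, stood at 25589, 25282 and 27465 in total RNA and at 33490, 39761 and 31575 in m7G-RIP, with 0.42 as log2 ratio (SE 0.11) and an edgeR adjusted p of 0.0106. miR-98-5p, the least abundant member, stood at 144, 164 and 190 in total RNA and at 213, 229 and 262 in m7G-RIP, with 0.50 as log2 ratio (SE 0.17) and an edgeR adjusted p of 0.0311. For each of these members all m7G-RIP libraries lay above all total RNA libraries, though the gap was small beside that of let-7b-5p.

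The calls of this middle group depended on which libraries were in the fit. Without m7G-RIP replicate 1, 2 or 3, none of the 3 passed the threshold, with log2 ratios of 0.33, 0.29 and 0.25 for let-7d-5p, 0.23, 0.15 and 0.27 for let-7f-5p, and 0.36, 0.35 and 0.19 for miR-98-5p. Leaving out total RNA replicate 1 or 2 likewise took miR-98-5p out of the calls (0.39 and 0.47), while let-7d-5p and let-7f-5p stayed enriched there and all 3 stayed enriched without total RNA replicate 3. With the same 620 miRNAs tested, the 3 calls were lost without total RNA replicate 1 or 2, that of miR-98-5p also without m7G-RIP replicate 3, and let-7d-5p and let-7f-5p kept theirs in the other 4 fits.

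let-7g-5p and let-7i-5p were not enriched on the TMM scale. let-7g-5p, from the WDR82 intron, stood at 6221, 5760 and 6507 TMM-scaled CPM in total RNA and at 6120, 7218 and 5558 in m7G-RIP, so its groups overlapped. Its log2 ratio was 0.03 (SE 0.12, edgeR adjusted p 0.833). let-7i-5p, the most abundant member of total RNA, stood at 58674, 58492 and 60636 in total RNA and at 50497, 56914 and 54619 in m7G-RIP. All 3 m7G-RIP values were lower, but the log2 ratio of -0.13 (SE 0.09, edgeR adjusted p 0.238) did not pass the threshold. With library size alone both had positive ratios past the threshold, 0.58 for let-7g-5p and 0.42 for let-7i-5p, a setting in which the median of all tested miRNAs rose by 0.55. let-7i-5p was called depleted, at -0.30, -0.34 and -0.36, when m7G-RIP replicate 1, 2 or 3 was left out, but not when the same 620 miRNAs were tested. let-7g-5p had negative ratios, down to -0.25, in most fits that left out a library, without a call.

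**Figure D2:**
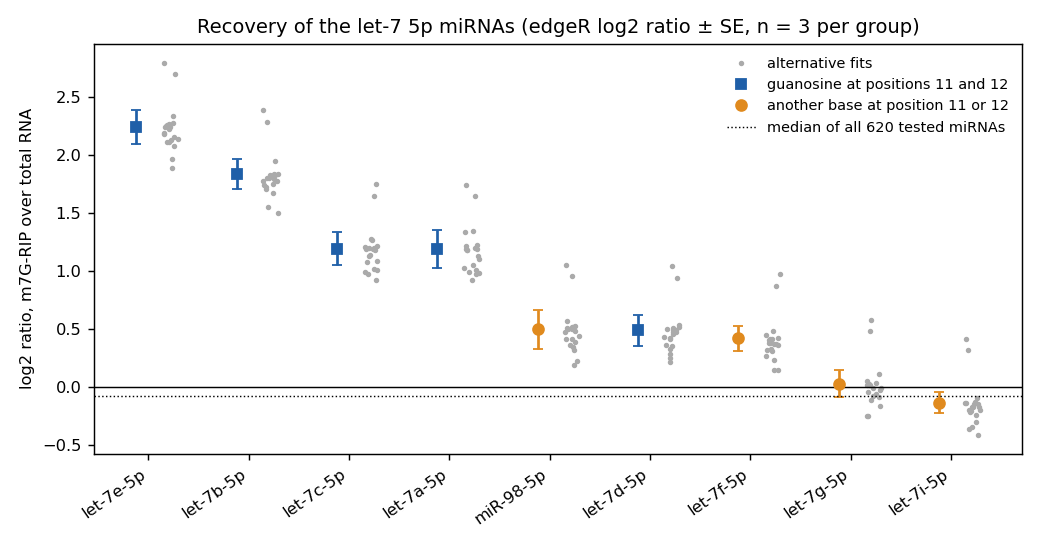
edgeR log2 ratio of m7G-RIP over total RNA with its SE (n = 3 per group) for the 8 members and let-7e-5p, with grey dots for the alternative fits, and colour for the bases at positions 11 and 12. The ratios fall from 1.83 for let-7b-5p to -0.13 for let-7i-5p among the members, and the grey dots of let-7g-5p and let-7i-5p lie on both sides of 0, above it with library size alone.

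The make-up of the family was examined next, as a member's share of the summed let-7 5p counts of a library (9 miRNAs, let-7e-5p included) does not depend on how libraries are scaled. Of the 8 members, 3 had a higher share in every m7G-RIP library than in any total RNA library, 4 had a lower share, and miR-98-5p overlapped. Separation was common in these libraries. On TMM-scaled CPM, a different measure, 29.5% of all tested miRNAs lay wholly above and 36.5% wholly below. Within-family shares were not computed for other families. For each of the 7 members whose shares did not overlap, the two-sided exact permutation test gave p = 0.1. This is the lowest value possible with 3 libraries a group, so 0.05 was out of reach, and 8 such comparisons were made without adjustment.

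let-7i-5p lost the largest share. It made up 44.6%, 45.5% and 40.0% of let-7 5p counts in total RNA and 24.6%, 25.3% and 24.99% in m7G-RIP, means of 43.4% ± 2.99 and 24.98% ± 0.346 (SD, n = 3), a difference of -18.4 percentage points. In total RNA it was the leading let-7 miRNA in every library.

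let-7a-5p took its place. It made up 24.1%, 22.8% and 30.3% in total RNA and 39.3%, 36.6% and 37.0% in m7G-RIP, a gain of 11.9 points between means of 25.7% ± 4.02 and 37.6% ± 1.48 (SD, n = 3). There were 0.541, 0.4998 and 0.758 reads of let-7a-5p per read of let-7i-5p in total RNA, and 1.60, 1.45 and 1.48 in m7G-RIP. The order of these most abundant members was therefore exchanged in all libraries.

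let-7b-5p rose from 2.98%, 3.15% and 2.90% to 6.06%, 6.56% and 7.77%, a gain of 3.78 points. The least m7G-RIP share was above every total RNA share by 2.91 points. let-7c-5p made up 0.318%, 0.349% and 0.383% in total RNA and 0.533%, 0.495% and 0.504% in m7G-RIP, a gain of 0.161 points. let-7e-5p itself, at 3.55% ± 0.166 in total RNA and 10.7% ± 1.51 in m7G-RIP (SD, n = 3), is in the same summed counts, so its rise lowers the shares of all the members.

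Of the summed counts with let-7e-5p in them, let-7f-5p, let-7g-5p and let-7d-5p held lower shares in m7G-RIP, although let-7f-5p and let-7d-5p were enriched against the bulk of miRNAs. let-7f-5p went from 19.5%, 19.7% and 18.1% to 16.3%, 17.7% and 14.4%, with a gap of 0.412 points between the groups. let-7g-5p went from 4.73%, 4.48% and 4.29% to 2.98%, 3.21% and 2.54%. let-7d-5p went from 0.283%, 0.285% and 0.297% to 0.253%, 0.259% and 0.260%, a difference of -0.0309 points. With let-7e-5p left out of the sum, only let-7g-5p and let-7i-5p stayed wholly lower, and both others overlapped between the groups: let-7f-5p held 18.8% to 20.4% in total RNA and 16.5% to 19.6% in m7G-RIP, and let-7d-5p 0.293% to 0.308% and 0.281% to 0.297%. miR-98-5p held, with let-7e-5p included, 0.110%, 0.127% and 0.125% in total RNA and 0.104%, 0.102% and 0.120% in m7G-RIP, with overlapping groups (exact permutation p = 0.2, n = 3 per group).

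**Figure D3:**
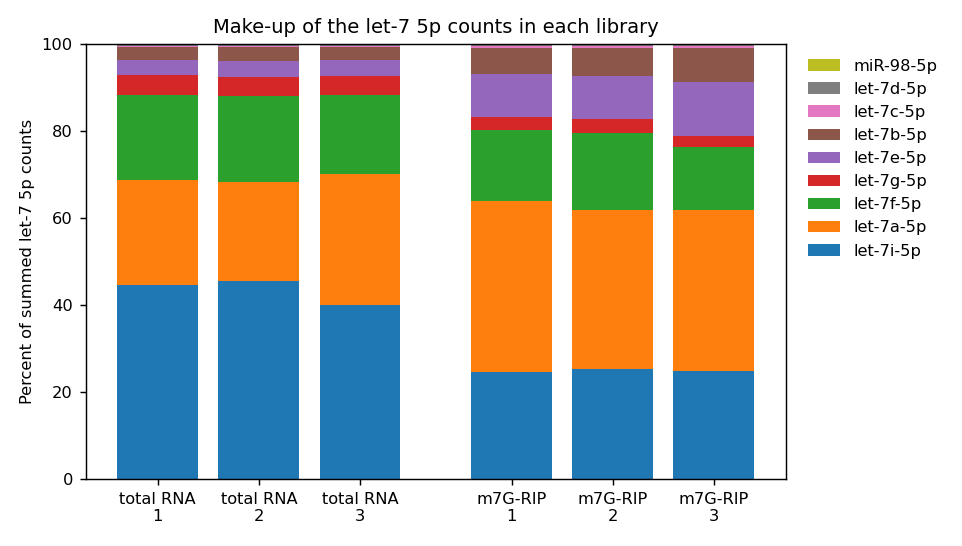
Stacked bars of the percent of summed let-7 5p counts taken by each of the 9 let-7 5p miRNAs in each library. let-7i-5p goes from between 40.0% and 45.5% in total RNA to between 24.6% and 25.3% in m7G-RIP, and let-7a-5p, let-7b-5p and let-7e-5p widen.

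By level, the members in total RNA ran from let-7i-5p through let-7a-5p, let-7f-5p, let-7g-5p, let-7b-5p, let-7c-5p and let-7d-5p to miR-98-5p. The ranges of neighbours in this order did not overlap, except those of let-7c-5p and let-7d-5p (418 to 581 and 366 to 450 TMM-scaled CPM). Within each total RNA library let-7c-5p was above let-7d-5p. In m7G-RIP let-7a-5p came before let-7i-5p and let-7b-5p before let-7g-5p, and the rest of the order was as in total RNA, with no overlap between neighbours. As all members have 22 bases, these levels need no correction for length.

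Ratios of counts between members were then set side by side, because 2 members of a library share its depth and its scaling. For 23 of the 28 pairs the log2 count ratio of the m7G-RIP libraries lay wholly outside that of the total RNA libraries. Across all pairs of tested miRNAs with a count in every library this was so for 63.9%. The 5 pairs that overlapped were let-7a-5p with let-7c-5p, let-7g-5p with let-7i-5p, and the 3 pairs among miR-98-5p, let-7f-5p and let-7d-5p. With all libraries in, the members thus fell into levels of recovery within which the libraries did not separate them. These were let-7b-5p alone, then let-7a-5p and let-7c-5p, then miR-98-5p with let-7f-5p and let-7d-5p, then let-7g-5p and let-7i-5p. Some of these overlaps rested on a single library. let-7a-5p and let-7c-5p separated without total RNA replicate 2, and let-7d-5p and let-7f-5p without total RNA replicate 3. let-7g-5p and let-7i-5p separated without m7G-RIP replicate 3. Each time 24 pairs were separate, against 23 without any other library. The overlap of 2 members does not show that they are recovered alike.

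The widest of these differences was between let-7b-5p and let-7i-5p, whose log2 count ratio was 1.96 higher in m7G-RIP (-3.85 ± 0.06 in total RNA and -1.89 ± 0.18 in m7G-RIP, SD, n = 3). let-7b-5p had 0.631, 0.704 and 0.677 reads per read of let-7g-5p in total RNA and 2.03, 2.04 and 3.05 in m7G-RIP. let-7f-5p, which is let-7a-5p with a single base exchanged (G12A), had 0.806, 0.865 and 0.597 reads per read of let-7a-5p in total RNA and 0.415, 0.483 and 0.391 in m7G-RIP. The log2 ratio of let-7a-5p to let-7f-5p was thus 0.80 higher after immunoprecipitation. let-7c-5p, which is let-7a-5p with A19G, had a ratio to it that differed by 0.01 on the log2 scale. let-7e-5p, with U9G, exceeded let-7a-5p by 1.02.

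**Figure D4:**
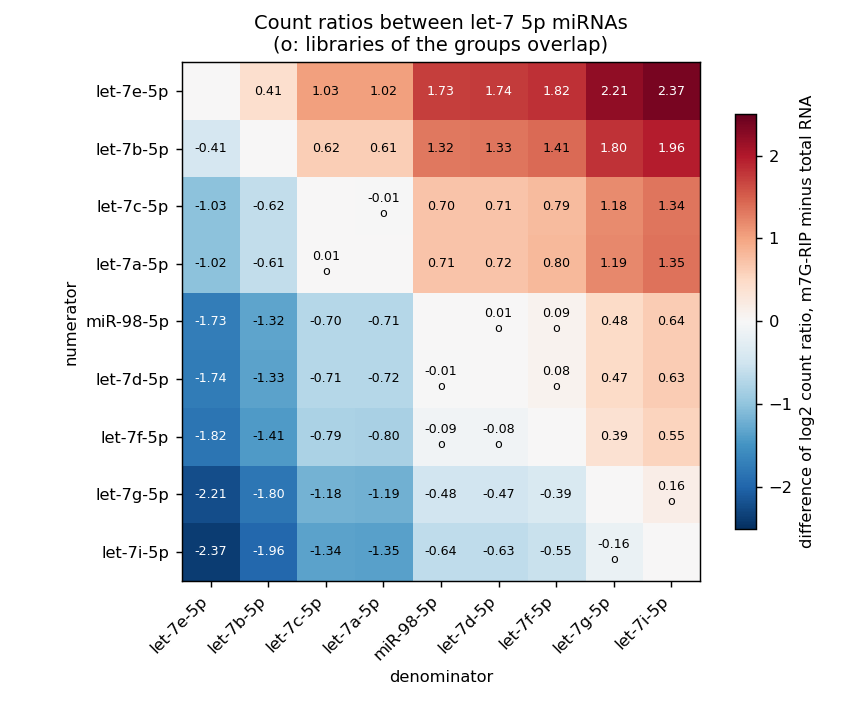
For each pair of let-7 5p miRNAs, the log2 ratio of raw counts (row over column) in m7G-RIP minus that in total RNA, as means over 3 libraries, with an o where the libraries of the groups overlap. The largest difference between members is 1.96 (let-7b-5p over let-7i-5p), and 5 pairs of members overlap.

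The sequences above were compared with this order, a comparison chosen after the values were seen and given without a test. A guanosine stands at both positions 11 and 12 in let-7a-5p, let-7b-5p, let-7c-5p and let-7d-5p, and in let-7e-5p. The position 12 guanosine is replaced in let-7f-5p (G12A), let-7g-5p and let-7i-5p (G12U), and the position 11 guanosine in miR-98-5p (G11A). Log2 ratios of the first 4 members ran from 0.49 to 1.83 and those of the other 4 from -0.13 to 0.50, so that the ranges touch at let-7d-5p and miR-98-5p. In the study m7G was mapped to position 11 of let-7e-5p, where only miR-98-5p among the members lacks a guanosine. The ratio of miR-98-5p, 0.50, was above those of let-7f-5p, let-7g-5p and let-7i-5p (0.42, 0.03 and -0.13), though the libraries did not separate it from let-7f-5p. Members with both guanosines held 28.7%, 27.5% and 35.2% of the counts of the 8 members in total RNA and 51.2%, 48.7% and 51.9% in m7G-RIP. Most of this sum was let-7a-5p, with means of 26.7% in total RNA and 42.1% in m7G-RIP. let-7d-5p did not gain, with means of 0.299% and 0.288% and overlapping groups. These are the same counts from which the grouping was chosen, so the sum is no separate support for it. Guanosine at both positions occurs in 11.4% of the 2281 listed miRNAs with a RefSeq mature sequence. Outside the family, 20 of 59 tested miRNAs with this feature were enriched (33.9%), with a median log2 ratio of 0.55, against 108 of 489 without it (22.1%), with a median of -0.18. The number of guanosines was 10 in let-7b-5p, 9 in let-7c-5p, 8 each in let-7a-5p, let-7d-5p and let-7i-5p, and 7 in let-7f-5p, let-7g-5p and miR-98-5p. let-7i-5p, with as many guanosines as let-7a-5p, had the lowest ratio of the members.

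The hairpins were also searched for the loosest of the G-quadruplex motifs that the study defined, 4 runs of at least 2 guanosines (GG) separated by 1 to 7 bases of any kind, on the transcript strand. Of the members' 11 hairpins it occurred in MIRLET7B and MIRLET7C, and it also occurred in MIRLET7E. The windows are shown with the runs in capitals because they reach into the 5p strand.
MIRLET7B: GGGGugaGGuaguaGGuuguguGG
MIRLET7C: GGGuugaGGuaguaGGuuguauGG
MIRLET7E: GGGcugaGGuaGGaGG
In let-7b and let-7c the last run is made by A19G, which both carry relative to let-7a-5p. The motif was not found in the 9 other hairpins of the members, 3 of them of let-7a-5p, which was enriched as much as let-7c-5p. It occurs in 29.3% of all 1562 RefSeq hairpins of the table used, of 41 to 164 bases, and in 29.6% of the 415 that give a tested miRNA. Outside the family, 56 of 150 tested miRNAs whose hairpin holds it were enriched (37.3%), with a median log2 ratio of 0.95, against 72 of 398 others (18.1%), with a median of -0.55. A match describes these letters and does not show a folded structure.

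The other strand of the members' hairpins was scarcer than the guide. Of 10 passenger (3p) strands, 9 were tested, 1 was enriched and the other 8 did not pass the threshold, where 23.5% of all tested miRNAs were enriched, and the median log2 ratio was 0.30. The difference between strands was not tested. The enriched one was let-7b-3p, from the same hairpin as the member with the highest ratio, with 1316, 1359 and 1384 counts in total RNA and 1058, 1167 and 1786 in the shallower m7G-RIP libraries, and its log2 ratio was 1.23 (SE 0.19, edgeR adjusted p 0.00054). let-7a-3p, from MIRLET7A1 and MIRLET7A3, had 688, 585 and 596 counts in total RNA and 111, 176 and 234 in m7G-RIP, and its log2 ratio was -0.58 (SE 0.26, edgeR adjusted p 0.0927), on the other side of 0 from its guide let-7a-5p, while without TMM its mean CPM was 62.0 and 60.3. The log2 ratios of let-7d-3p and let-7f-2-3p were 0.09 and 0.20 (edgeR adjusted p 0.736 and 0.539). Among the scarcer strands, with at most 173 counts in any library, log2 ratios were 1.21 for let-7i-3p, 1.21 for let-7c-3p and 0.56 for let-7f-1-3p (edgeR adjusted p 0.0549, 0.418 and 0.14). Those of miR-98-3p and let-7a-2-3p, also scarce, were 0.30 and -0.05 (edgeR adjusted p 0.844 and 0.967), and let-7g-3p was not tested.

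Of 9 miRNAs from other hairpins in the members' clusters, 5 were tested, of which 1 was enriched and 3 were depleted, against 23.5% and 29.2% of all miRNAs tested, with a median log2 ratio of -0.73. Their difference from the members was not tested, and 2 of the 5 had ratios within the members' range. miR-99a-5p, encoded beside let-7c in MIR99AHG, was depleted, its log2 ratio being -2.07 (SE 0.16, edgeR adjusted p 5.77e-06). miR-125b-5p, from hairpins beside let-7a-2 and let-7c, was also depleted, at -0.73 (SE 0.12, edgeR adjusted p 0.00108), and miR-125b-1-3p was enriched, at 0.90 (SE 0.12, edgeR adjusted p 0.000211). For miR-100-5p, encoded beside let-7a-2, it was 0.22 (SE 0.17, edgeR adjusted p 0.301). The third depleted miRNA was miR-125b-2-3p (edgeR adjusted p 0.00386). Without TMM the mean CPM of miR-125b-5p was 3517 in total RNA and 3103 in m7G-RIP, a smaller difference in the same direction. A search of the listed miRNAs for the seed GAGGUAG found 11, the 9 above and miR-4458 and miR-4500, both scarce. miR-4458 had 92, 92 and 78 counts in total RNA and 83, 112 and 122 in m7G-RIP, and was enriched, its log2 ratio being 1.55 (SE 0.32, edgeR adjusted p 0.00296). miR-4500 had 11, 27 and 23 counts in total RNA and 20, 1 and 28 in m7G-RIP, without a call.

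Among 188 miRNAs outside the family whose counts reached 100 or more in all libraries, the nearest to the summed members were sought as the smallest root mean square difference of centred log2 CPM over the 6 libraries. These were miR-222-3p at 0.102, miR-409-3p at 0.113 and miR-501-3p at 0.129. Their log2 ratios were 0.36, 0.62 and 0.35, against 0.55 (a difference of mean log2 levels) for the summed members, a sum dominated by let-7i-5p, let-7a-5p and let-7f-5p.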

How the data were processed

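Small RNA libraries from 6 samples were analysed. Each group has a table of counts as deposited by the authors, not normalised, with the same 2588 mature miRNA names in the same order. Per the study's methods, Trimmomatic was used for trimming, STAR for end-to-end alignment (GRCh38) and featureCounts for counting over miRBase. The STAR settings listed there allowed a mismatched base, which bears on members that differ at a single base, and alignment to several loci. The submitters' processing notes name Bowtie2 in place of STAR. How reads mapping to several loci, such as the 3 let-7a hairpins, were counted is not given in the sources used here. Nothing says that replicates came from separate cultures, so p-values measure the spread between these libraries, which may be technical.

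Differences were tested on the counts with edgeR 4.0.16 (R 4.3.3, robust quasi-likelihood F test, TMM, default expression filter by group, Benjamini-Hochberg over the 620 miRNAs kept, threshold 0.05, no replicate block). Fold changes and SE are on the log2 scale. Shares and count ratios used unscaled counts. Shares were compared by two-sided exact permutation tests (scipy 1.17.1). Promoters, proteins and the abundance of METTL1 were not analysed. The members, lists and tests were chosen with earlier results of these data known. The rule for names took all members, let-7e-5p because shares include it, up to 4 of the most abundant miRNAs of each context list, and the 3 miRNAs nearest in pattern. miR-21-5p, miR-125b-2-3p, let-7i-3p, let-7c-3p, let-7f-1-3p, miR-98-3p, let-7a-2-3p, the tissue miRNAs named and the split by sequence were added after values were seen.

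No 2 replicates were alike within counting noise (chi-square per degree of freedom from 22.2 to 112) and all were kept. On 565 simulated miRNAs for this comparison, the code called 67.7% of 4-fold and 36.8% of 2-fold changes in the right direction and 0% of unchanged miRNAs. Alternatives covered scaling, filter, tool (DESeq2 1.42.0, limma-voom 3.58.1), replicate block, hairpin copy number and leaving out each library.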

Additional observations from a re-analysis of the deposited data

How the results depend on the processing

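The number of enriched members was 3 with no filter on low counts and 3 when a 2-fold change was also asked, and ran from 3 to 6 in fits without a library. The number of depleted members, 0 with all libraries, was 1 with no filter and from 0 to 1 without a library, in each case let-7i-5p. The causes were not tested, but the fits without an m7G-RIP library tested from 756 to 778 miRNAs in place of 620. let-7b-5p, let-7a-5p and let-7c-5p were enriched in every alternative run. let-7g-5p changed direction with no filter (-0.24) and with a minimum of 10 counts per library (-0.026), and ran from -0.25 to 0.016 without a library. With the same 620 miRNAs tested it was -0.054, -0.084 and -0.0090 without total RNA replicates 1, 2 and 3. Without m7G-RIP replicates 1, 2 and 3 it was then 0.052, -0.078 and 0.114. let-7i-5p changed direction under scaling by library size alone (0.42) or by sizes that leave out the top 10 miRNAs (0.32), where the median of all tested miRNAs rose by 0.55 and 0.45.

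Differences in share kept their direction in all alternatives. With the 8 members as the whole they were 15.4 points for let-7a-5p, 4.49 for let-7b-5p, 0.209 for let-7c-5p, -0.0108 for let-7d-5p, -1.71 for let-7f-5p and -0.0035 for miR-98-5p, and let-7d-5p and let-7f-5p then overlapped between the groups. With counts divided by the number of hairpin genes they were 7.03 for let-7a-5p, 6.04 for let-7b-5p, 0.286 for let-7c-5p, -0.00868 for let-7d-5p, -0.912 for let-7f-5p and -21.7 for let-7i-5p, which follows from the weights of let-7a-5p and let-7f-5p. The gain of the 8 members in the library, 12.4 points, was 3.84 without miR-21-5p, an alternative added after seeing the data, 13.6 without the 10 most abundant other miRNAs (40.2% and 53.8%) and 10.4 with counts per hairpin gene.

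Replicate numbers were not treated as a pairing, as deviations of same-numbered libraries had correlations of -0.00947, 0.00853 and 0.0703 over miRNAs with a mean count of at least 10, and of 0.0635, 0.0542 and 0.101 over those of at least 100. With the replicate block, 6 members were enriched and 0 depleted, and paired differences in share were as above (exact sign-flip p = 0.25, the smallest for 3 pairs). Depth was not a limit for the members, while miR-4500 and most passenger strands were too scarce for a firm ratio.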
